A study of Homo sapiens with 18 samples.

Results

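Solute carrier (SLC) genes encode membrane proteins that move nutrients, ions, metabolites and drugs across cell and organelle membranes. Members were taken as the features whose symbol in the platform annotation starts with SLC and a number, without a hyphen, keeping for each gene the feature with the highest mean over all arrays. This gave 24 genes of 53617 features, of which 16098 carry a gene symbol. Each of the 24 genes had 1 feature, and 23 passed the filter on low values. The gene that did not pass is the pseudogene SLC25A51P4. Most of the textbook transporters of glucose, glutamine, cystine, lactate and iron have no feature with their name here and were not analysed. The set is therefore mainly one of recently renamed carriers of the major facilitator and PQ-loop families.

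Genes were put in substrate classes by gene or by SLC family number, and families without another class went to orphan or other. The classes are thus approximate, and some genes of the orphan or other class have a substrate named below. By substrate class, 9 of the 24 genes are orphan or other carriers. Mitochondrial ornithine carriers (SLC25A15 and SLC25A2), metal and heme-related carriers (SLC49A3 and SLC49A4), nucleotide sugar carriers (SLC35D4 and SLC35F6), the bile acid and steroid exporter (SLC51A and SLC51B) and sugar carriers (SLC60A1 and SLC60A2) have 2 genes each. The amino acid family (SLC38A12), the sodium and proton exchangers (SLC9D1) and the vitamin and lipid carriers (SLC33A2) have 1 gene each. SLC2A4RG is named after a transporter but encodes a transcription factor that binds the promoter of the insulin-responsive glucose transporter gene.

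Solute carriers work by alternating access, in which a binding site faces one side of the membrane and then the other. Some use an ion gradient, some exchange one solute for another, and some let a solute flow down its own gradient. Those of the plasma membrane set what a tumour cell can take up, and those of the Golgi, lysosome and mitochondrion set what reaches the compartments where sugars are added to proteins, amino acids are recovered and urea cycle intermediates are exchanged.

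The arrays were Affymetrix whole-transcript gene arrays of total RNA from breast cancer cell lines, 18 in all. SKBR3, a HER2-positive line, received a control antisense oligonucleotide (ASO) or an anti-LINC01269 ASO. MDA-MB-231 and MDA-MB-468, both triple-negative lines, received a control ASO or an anti-AL078604.2 ASO. Every group, controls included, was transfected with a GapmeR, an ASO that directs cleavage of the RNA it binds, at 15 nM for 48 h, and had 3 arrays. The study asked how knockdown of each long non-coding RNA changes the transcriptome of its line. Neither target RNA has a named feature, so the knockdown itself was not analysed here, and since the labels name 1 ASO per target, effects of its sequence and of its target cannot be told apart. The labels do not say whether replicates were separate cultures, so p-values measure the spread between these arrays, which may be technical.

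Replicate arrays correlated at 0.985 to 0.992 over all features, and no 2 arrays held identical values. Array medians were 4.56 to 4.63 in the SKBR3 arrays, 5.41 to 5.43 in the MDA-MB-231 arrays and 5.21 to 5.24 in the MDA-MB-468 arrays, so levels were compared between lines only after quantile normalization. On that scale the control means of the lines correlated with each other at 0.982 to 0.988 over all features, a range that overlaps that of the replicates. Those are means of 3 arrays, whereas the replicate values are between single arrays. Line markers followed the labels only in part. Of 7 named luminal and HER2 markers, 5 were highest in the SKBR3 arrays, FOXA1 and KRT18 among them, 2 in MDA-MB-231 and 0 in MDA-MB-468. Of 8 mesenchymal markers, 2, 3 and 3 were highest in the SKBR3, MDA-MB-231 and MDA-MB-468 arrays. The counts in the same order were 1, 2 and 3 of 6 epithelial markers and 1, 2 and 1 of 4 basal markers. EPCAM, an epithelial marker that MDA-MB-231 is known to express weakly, stood at 11.40, 11.71 and 11.80 (quantile-normalized log2 control means of the SKBR3, MDA-MB-231 and MDA-MB-468 arrays). VIM, the mesenchymal filament gene for which MDA-MB-231 is known, stood at 6.76, 6.80 and 7.42. ESRP1, a splicing factor of epithelial cells, stood at 10.77, 10.77 and 10.73. EGFR, which MDA-MB-468 is known to carry in extra copies, was highest in the SKBR3 arrays, at 11.44, 10.87 and 11.18. The defining HER2 gene ERBB2 has no named feature here, and GRB7, its neighbour in the segment amplified in SKBR3, stood at 7.05, 7.29 and 7.02. The lines are named below as labelled, and every difference between lines is a difference between arrays so labelled. Of 3 named leukocyte markers, CD14 and LYZ did not pass the filter on low values, and of 3 named stromal markers DCN and PECAM1 did not. The leukocyte marker CD68, a lysosomal protein, passed, stood at 6.95, 7.62 and 6.16 and was called between each pair of lines. After the anti-AL078604.2 ASO, CD68 stood at 0.47 in MDA-MB-231, 0.38 in MDA-MB-468 and 0.42 in the mean of both, each at an unadjusted p under 0.05 in limma and none called. The endothelial marker VWF also passed, at 4.71, 5.17 and 4.87. The part of these markers in the results below was not tested.

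Few of the solute carrier genes were called after either ASO, and few of all features were. The counts below are therefore no trait of this family, and a gene not called is not shown to be unchanged. A gene was called when its adjusted p was under 0.05 in limma, with Benjamini-Hochberg adjustment over all 29855 features tested. In SKBR3 after the anti-LINC01269 ASO, 0 of 23 genes were called, beside 0% of all features. In MDA-MB-231 after the anti-AL078604.2 ASO, 0 of 23 were called, beside 0.171% of all features, and in MDA-MB-468 0 of 23, beside 0.0067%. In the average over both triple-negative lines 1 of 23 was called, SLC35D4, beside 1.6% of all features. At an unadjusted p under 0.05 in limma the counts were 3 genes in SKBR3 (9.16% of all features), 2 in MDA-MB-231 (9.35%), 3 in MDA-MB-468 (10.5%) and 2 in the mean of both (14.6%). The members' shares at this level were 13%, 8.70%, 13% and 8.70%, each within 2 genes of the count that its background share would give.

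**Figure D1:**
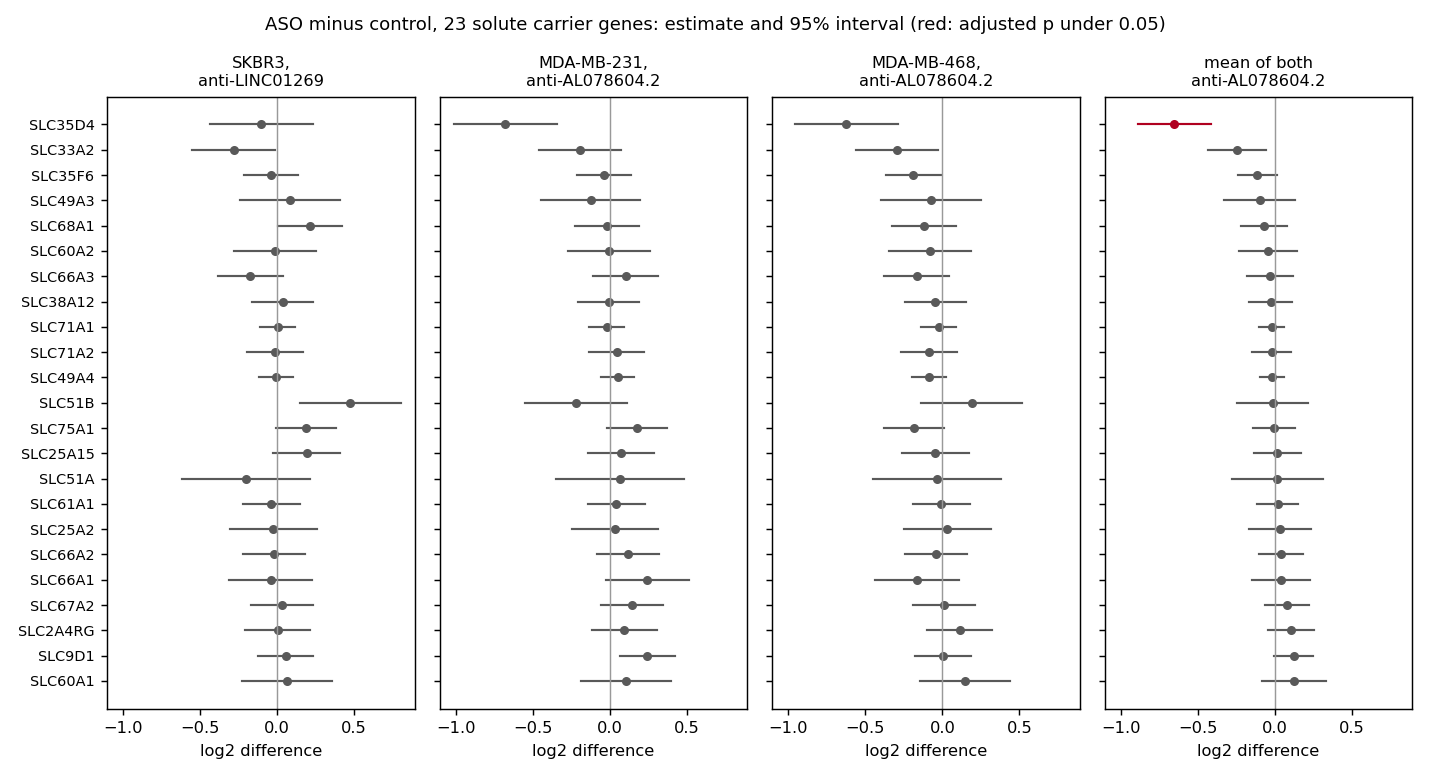
Log2 difference between ASO and control arrays for the 23 solute carrier genes tested, in each line and in the average over both triple-negative lines, with points for the estimate and lines for its 95% interval. In the mean of both, SLC35D4 at -0.65 is the gene drawn in red (adjusted p under 0.05), and in the SKBR3 panel SLC51B at 0.47 lies farthest from 0.

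SLC35D4, long known as TMEM241, encodes a Golgi membrane protein of the nucleotide sugar transporter family that has been linked to the supply of UDP-N-acetylglucosamine for glycosylation. In MDA-MB-231 its deposited log2 values were 7.62, 7.75 and 7.72 on the control arrays and 7.53, 6.84 and 6.70 on the anti-AL078604.2 arrays. In MDA-MB-468 they were 7.31, 7.36 and 7.37 on the control arrays and 6.50, 6.68 and 6.98 on the anti-AL078604.2 arrays. Every anti-AL078604.2 array lay below every control array of its line, but replicate 1 of MDA-MB-231 lay only just below its controls. In SKBR3 the control arrays read 6.61, 6.73 and 6.75 and the anti-LINC01269 arrays 6.65, 6.58 and 6.55, and the groups overlapped.

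Averaged over the comparisons in MDA-MB-231 and MDA-MB-468, SLC35D4 fell by 0.65 on the log2 scale (SE 0.112, 95% interval -0.89 to -0.42, limma adjusted p = 0.0103), which is 0.637 times the control level. In bulk RNA a fall in all cells and a fall in some of them cannot be told apart. It was the only member whose groups did not overlap in both lines in the same direction, beside 2.78% of all features. The difference was -0.68 (SE 0.158, limma adjusted p = 0.0988) in MDA-MB-231 alone and -0.62 (SE 0.158, limma adjusted p = 0.206) in MDA-MB-468 alone, so neither line passed the threshold by itself. The response differed between both lines by -0.05 (95% interval -0.53 to 0.42, limma adjusted p = 0.999). In SKBR3 the difference after the other ASO was -0.10 (95% interval -0.44 to 0.23, limma adjusted p = 0.894), and whether the ASOs differ in their effect on SLC35D4 was not tested.

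The call for SLC35D4 in the mean of both lines held under all 19 alternatives run, with limma adjusted p from 7.02e-05 to 0.0451 and differences from -0.78 to -0.57. Among the 19, taking the mean of a gene's features could change nothing, since SLC35D4 has 1 feature. Without replicate 1 of the anti-AL078604.2 arrays of MDA-MB-231, SLC35D4 passed in that line alone, at -0.93 (limma adjusted p = 0.000719). The 6 genes beside SLC35D4 that have a tested feature, CABLES1, RIOK3, RMC1, CABYR, TTC39C and ANKRD29, were not called in any ASO comparison. At an unadjusted p under 0.05 in limma, RIOK3 passed in MDA-MB-468 and both RIOK3 and CABYR in the mean of both lines. RIOK3 read 0.15 (SE 0.0601, limma adjusted p = 0.231) and CABYR 0.33 (SE 0.130, limma adjusted p = 0.231) in the mean of both lines, opposite in sign to SLC35D4. In the same comparison, beside 1.6% of all features called, 1 of 6 mesenchymal markers was called, CD44, which fell (-0.32, limma adjusted p = 0.00980). Of these 6, 4 read higher and 2 lower, with a median of 0.06. Of 4 basal markers 1 was called, KRT5, which fell (-0.29, limma adjusted p = 0.0454), and all 4 read lower, with a median of -0.09. Their part in the SLC35D4 result was not tested.

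**Figure D2:**
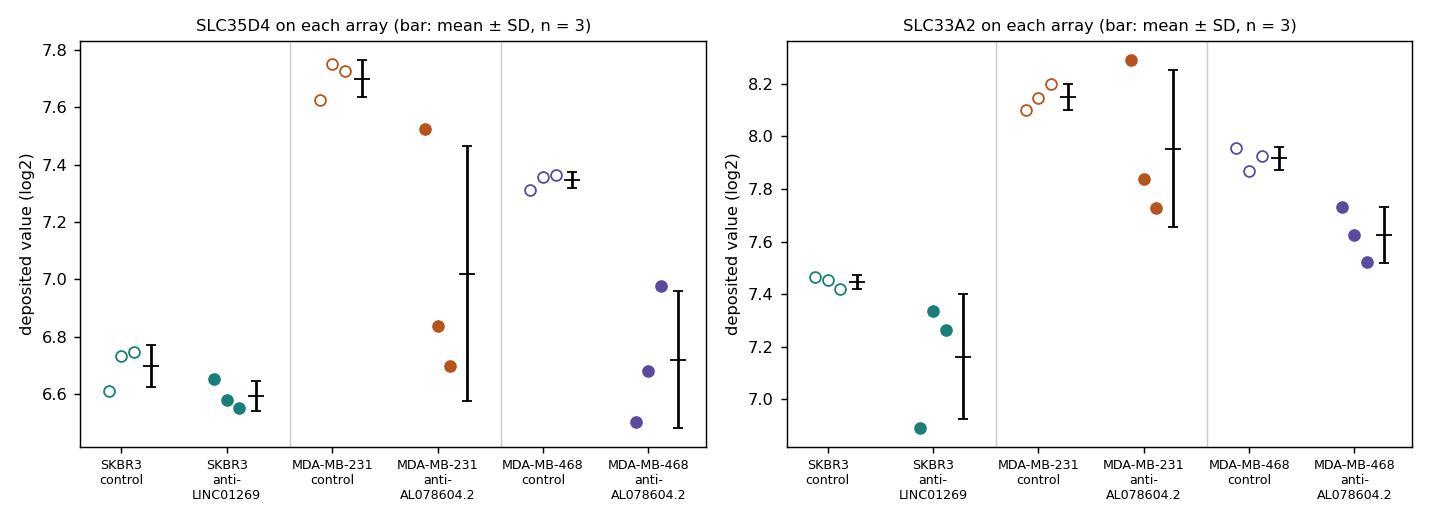
Deposited log2 value of SLC35D4 (left) and SLC33A2 (right) on each of the 18 arrays, in replicate order within a group, with open circles for control arrays, filled circles for ASO arrays and black bars for the group mean ± SD (n = 3). SLC35D4 lies lower on all anti-AL078604.2 arrays than on the controls of the same line, and replicate 1 of the MDA-MB-231 ASO group, at 7.53, stands close to its controls.

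SLC33A2 (MFSD3), a relative of the acetyl-CoA carrier of the endoplasmic reticulum, read lower on average after the ASO in each line and was not called. Its unadjusted p in limma was under 0.05 in SKBR3, in MDA-MB-468 and in the mean of both lines. Its values in SKBR3 were 7.47, 7.46 and 7.42 on control and 6.89, 7.33 and 7.26 on anti-LINC01269 arrays, with no overlap. In MDA-MB-468 they were 7.95, 7.87 and 7.93 on control and 7.73, 7.62 and 7.52 on anti-AL078604.2 arrays, again with no overlap. In MDA-MB-231 the control arrays read 8.10, 8.14 and 8.20, replicates 2 and 3 of the ASO group read 7.84 and 7.73, and replicate 1 read 8.29, above all controls. The differences were -0.28 (SE 0.126, limma adjusted p = 0.519) in SKBR3, -0.29 (limma adjusted p = 0.433) in MDA-MB-468 and -0.20 (limma adjusted p = 0.712) in MDA-MB-231. In the average over both triple-negative lines SLC33A2 stood at -0.24 (SE 0.0891, limma adjusted p = 0.198). Without replicate 1 of the MDA-MB-231 ASO group that mean was -0.33 and passed (limma adjusted p = 0.0168).

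SLC35F6, the other gene of the nucleotide sugar class, is found on lysosomal and mitochondrial membranes. Its MDA-MB-468 control arrays read 9.45, 9.55 and 9.51 and its anti-AL078604.2 arrays 9.44, 9.35 and 9.16. The groups did not overlap, although replicate 1 of the ASO group lay almost level with replicate 1 of the control. The difference was -0.19 (SE 0.0835, limma adjusted p = 0.443) in MDA-MB-468, -0.04 in MDA-MB-231 and -0.04 in SKBR3. In the mean of both lines it was -0.11 (SE 0.0591, limma adjusted p = 0.403).

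SLC51A and SLC51B encode the alpha and beta subunits of the organic solute transporter, which exports bile acids and steroid conjugates only as the joined pair. SLC51B had the smallest p of the solute carrier genes in SKBR3. Its control arrays there read 4.02, 4.54 and 4.29 and its anti-LINC01269 arrays 4.74, 4.44 and 5.09. The ASO arrays were higher on average by 0.47 (SE 0.155, limma adjusted p = 0.424), but replicate 2 of the ASO group lay inside the range of the controls. SLC51A in SKBR3 went from 4.99, 5.23 and 5.14 to 5.24, 4.64 and 4.87, a difference of -0.20 (SE 0.196, limma adjusted p = 0.80) with overlapping groups.

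After the anti-AL078604.2 ASO the SLC51B groups lay apart in MDA-MB-231 and only just apart in MDA-MB-468, in opposite directions. In MDA-MB-231 the control arrays read 5.75, 5.69 and 5.77 and the ASO arrays 5.56, 5.62 and 5.36, a difference of -0.22 (SE 0.155, limma adjusted p = 0.751). In MDA-MB-468 the control arrays read 5.42, 5.25 and 5.53 and the ASO arrays 5.53, 5.64 and 5.59, a difference of 0.19 (limma adjusted p = 0.732). The difference between the responses was -0.41 (SE 0.220, limma adjusted p = 0.998). SLC51A differed from its controls by 0.07 in MDA-MB-231 and by -0.04 in MDA-MB-468, with overlapping groups in both. The standard errors of both subunits were among the widest of the members.

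SLC75A1 (MFSD10), an efflux carrier of organic anions, read 7.21, 7.33 and 7.16 on SKBR3 control arrays and 7.41, 7.47 and 7.38 on anti-LINC01269 arrays, and it was the member that lay higher with no overlap in that line. The difference was 0.19 (SE 0.0919, limma adjusted p = 0.560). After the anti-AL078604.2 ASO it stood at 0.18 (limma adjusted p = 0.601) in MDA-MB-231 and at -0.19 (limma adjusted p = 0.50) in MDA-MB-468, with overlapping groups in both.

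SLC66A1 (PQLC2) exports cationic amino acids such as lysine and arginine from lysosomes. In MDA-MB-231 it read 7.05, 6.91 and 7.23 on control and 7.44, 7.24 and 7.24 on anti-AL078604.2 arrays, a difference of 0.24 (SE 0.128, limma adjusted p = 0.601) with the groups just apart. In MDA-MB-468 it read 6.71, 6.84 and 6.77 on control and 6.74, 6.80 and 6.29 on ASO arrays, a difference of -0.16 (limma adjusted p = 0.709) set mainly by replicate 3 of the ASO group. The related PQ-loop gene SLC66A2 stood at 0.12 (limma adjusted p = 0.795) in MDA-MB-231 and -0.04 in MDA-MB-468. SLC66A3, also of this family, stood at -0.17 (limma adjusted p = 0.596) in MDA-MB-468 with no overlap, at 0.10 in MDA-MB-231 and at -0.18 (limma adjusted p = 0.623) in SKBR3. SLC49A4 (DIRC2), a lysosomal membrane carrier, was the most precisely measured member, and its differences were -0.01, 0.05 and -0.09 (SE 0.0514 each) in SKBR3, MDA-MB-231 and MDA-MB-468. Its MDA-MB-468 groups did not overlap, at 9.49, 9.51 and 9.47 on control and 9.38, 9.40 and 9.42 on ASO arrays (limma adjusted p = 0.589).

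SLC9D1 (TMCO3), a membrane protein with the fold of cation and proton antiporters, had the second smallest p of the members in MDA-MB-231. Its control arrays there read 9.56, 9.63 and 9.50 and its ASO arrays 9.64, 9.93 and 9.85. All ASO arrays lay above the controls, replicate 1 by the least, and the difference was 0.24 (SE 0.0847, limma adjusted p = 0.308). In MDA-MB-468 it was 0.00 and in SKBR3 0.05, so the average over both triple-negative lines was 0.12 (SE 0.0599, limma adjusted p = 0.359).

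The sugar carriers SLC60A1 (MFSD4A) and SLC60A2 (MFSD4B) differed by between -0.08 and 0.15 over the ASO comparisons, and SLC60A1 stood at 0.13 (SE 0.0979, limma adjusted p = 0.630) in the mean of both lines. The mitochondrial carriers SLC25A15 and SLC25A2, which exchange ornithine and citrulline across the inner membrane, differed by between -0.05 and 0.19. SLC25A15 in SKBR3 was at the upper end of that range (SE 0.102, limma adjusted p = 0.606), where its arrays went from 5.91, 6.08 and 6.05 to 6.38, 6.02 and 6.21. These are close paralogs, and probes that bind both transcripts could blend them, which was not tested. The metal-class gene SLC49A3 stood at -0.12 (SE 0.152, limma adjusted p = 0.894) in MDA-MB-231, and the amino acid family gene SLC38A12 stayed between -0.05 and 0.04.

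Of the orphan or other class, 0 of 9 genes were called in SKBR3, MDA-MB-231, MDA-MB-468 or the mean of both in limma. The shares of all features called were 0%, 0.171%, 0.0067% and 1.6%. At an unadjusted p under 0.05 there was 1 gene in SKBR3 and 0 in the others, beside 9.16%, 9.35%, 10.5% and 14.6% of all features. With 9 genes these counts are near those shares. Their median difference was -0.01 in SKBR3, 0.10 in MDA-MB-231 and -0.09 in MDA-MB-468. SLC68A1 (TMEM180) had the smallest p of the class in SKBR3, with 5.96, 5.80 and 6.10 on control and 6.23, 6.10 and 6.17 on anti-LINC01269 arrays (difference 0.21, SE 0.0987, limma adjusted p = 0.540), the highest control array lying level with the lowest ASO array. SLC67A2 (MFSD9) stood at 0.14 (SE 0.0951, limma adjusted p = 0.727) in MDA-MB-231 with no overlap. SLC61A1 (MFSD5), a molybdate carrier, and SLC71A1 and SLC71A2, paralogs of unsettled substrate, stayed between -0.09 and 0.04. SLC2A4RG, the transcription factor, stood at 0.09 in MDA-MB-231, where all ASO arrays lay above the controls, and at 0.11 in MDA-MB-468, and its average over both lines was 0.10 (SE 0.0706, limma adjusted p = 0.556). The pseudogene SLC25A51P4 read between 2.88 and 3.51 over all 18 arrays and was not tested.

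As a family the solute carrier genes had a median difference of -0.01 in SKBR3 (0.01 over all features), 0.04 in MDA-MB-231 (0.01 over all features), -0.05 in MDA-MB-468 (0.00 over all features) and -0.01 in the mean of both (0.01 over all features). Higher values after the ASO were seen for 11 of 23 genes in SKBR3, 14 of 23 in MDA-MB-231 and 6 of 23 in MDA-MB-468, beside 16125, 15821 and 14656 of all 29855 features. Groups did not overlap for 2 members in SKBR3 (11.5% of all features), 6 in MDA-MB-231 (17.2%) and 6 in MDA-MB-468 (16.9%). The members' shares were 8.70%, 26.1% and 26.1%. The design was sensitive enough to bound most genes, with standard errors from 0.0514 to 0.196 on the log2 scale. The 95% interval lay wholly within 2-fold of the control for 23, 22 and 23 of the 23 genes in SKBR3, MDA-MB-231 and MDA-MB-468, and within 1.5-fold for 21, 22 and 22. The exception at 2-fold was SLC35D4 in MDA-MB-231.

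The responses of both triple-negative lines to the same ASO had the same sign for 13 of 23 members, beside 59% of all features. No member differed between both lines after adjustment, where 0% of all features were called. At an unadjusted p under 0.05 in limma 2 of 23 differed, SLC75A1 (0.36, SE 0.130, adjusted p = 0.998) and SLC66A1 (0.41, SE 0.181, adjusted p = 0.998), beside 4.16% of all features. Both stood higher than control in MDA-MB-231 and lower in MDA-MB-468.

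**Figure D3:**
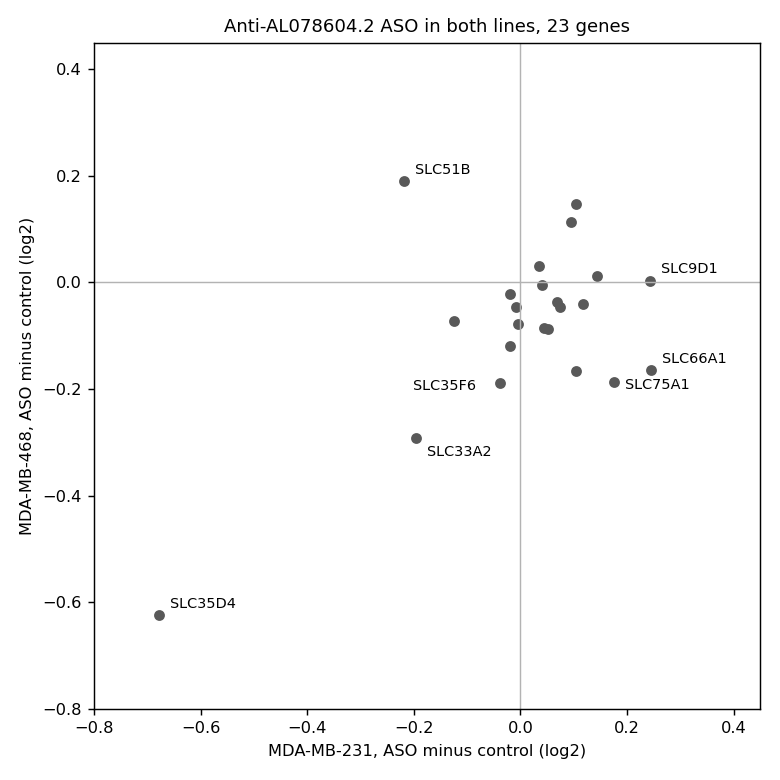
Log2 difference after the anti-AL078604.2 ASO in MDA-MB-468 (vertical) against that in MDA-MB-231 (horizontal), with 1 point for each of the 23 solute carrier genes tested. SLC35D4 lies apart at -0.68 and -0.62, and the other points surround 0, with SLC66A1 and SLC75A1 on the side higher in MDA-MB-231 and lower in MDA-MB-468.

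Genes that assist or control transporters were examined as lists that were chosen with earlier results of these data known. Their counts are therefore given as description, and the shares of all features beside them make no test of the lists. Of 40 transporter partners and regulators, 24 had a named feature and 17 were tested. In limma 0 were called in SKBR3, MDA-MB-231 or MDA-MB-468 alone, and 2 of 17 rose in the average over both triple-negative lines, beside 1.6% of all features called. At an unadjusted p under 0.05 the counts were 2, 4, 6 and 8 of 17, beside 9.16%, 9.35%, 10.5% and 14.6% of all features. These were ARRDC3 (0.40, SE 0.0689, limma adjusted p = 0.0103), an arrestin-domain protein that marks membrane cargo for endocytosis, and MTF1 (0.19, SE 0.0458, limma adjusted p = 0.0443), the metal-sensing transcription factor that controls zinc transporters. MT1F, a metallothionein that binds zinc, stood at 0.41 (SE 0.107, limma adjusted p = 0.0632).

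Of 24 regulators of transporter transcription, 16 were named and tested, and 0 were called in any ASO comparison in limma (3, 5 and 2 at an unadjusted p under 0.05 in SKBR3, MDA-MB-231 and MDA-MB-468, and 6 in the average, beside the same 9.16%, 9.35%, 10.5% and 14.6% of all features). ATF3, a stress-induced factor, stood at 0.57 (SE 0.129, limma adjusted p = 0.0966) in MDA-MB-231, and MITF, which drives lysosomal genes with its relatives, at 0.52 (SE 0.151, limma adjusted p = 0.191). In MDA-MB-468 the sterol factors SREBF2 and SREBF1 stood at -0.25 (limma adjusted p = 0.285) and -0.32 (limma adjusted p = 0.327). In SKBR3 the stress factor DDIT3 stood at 0.50 and MYC at 0.44 (limma adjusted p = 0.438 and 0.450). Of 49 genes listed as other membrane transport genes, 14 were named and tested, and 0 were called in limma (1, 2, 2 and 3 at an unadjusted p under 0.05 in the same order, beside the same shares of all features). This list is not separate from the solute carriers, since FLVCR1 has a solute carrier synonym and is counted again among the synonym genes below. Among these, the water and glycerol channel AQP3 stood at -0.47 (SE 0.128, limma adjusted p = 0.344) in SKBR3, and the heme exporter FLVCR1 at -0.30 (SE 0.0842, limma adjusted p = 0.179) in MDA-MB-231.

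The level of the solute carrier genes was compared between the control groups of the lines on the quantile-normalized scale. Between SKBR3 and MDA-MB-231, 6 of 23 members were called, beside 31.5% of all features. Between SKBR3 and MDA-MB-468 the count was 9 of 23, beside 35.5%, and between MDA-MB-231 and MDA-MB-468 it was 6 of 23, beside 26.1%. The members' shares, 26.1%, 39.1% and 26.1%, were near those of all features. These comparisons share control arrays with each other, and the line cannot be told apart from any separate handling of its arrays. Over the 3 pairs, 12 members were called in at least 1 (53.7% of all features) and 2, SLC71A1 and SLC49A4, in all 3 (4.56% of all features). The control means of a member spanned a median of 0.26 on the log2 scale, beside 0.37 for all features.

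SLC71A1 (MFSD14A, first described as a hippocampus-abundant transcript) and SLC2A4RG had the widest spans, 0.74 each, and ran in different orders over the lines. The RefSeq promoter windows of these genes, the 250 bases before the annotated start on GRCh38.p14, are shown because the genes differ most between the lines. Both lie on the plus strand and read 5′ to 3′ as follows, with capitals for a GC box (GGGCGG) or a CCAAT box (CCAAT) on either strand, adjoining or overlapping matches forming 1 run.
SLC71A1, chr1:100037845-100038094: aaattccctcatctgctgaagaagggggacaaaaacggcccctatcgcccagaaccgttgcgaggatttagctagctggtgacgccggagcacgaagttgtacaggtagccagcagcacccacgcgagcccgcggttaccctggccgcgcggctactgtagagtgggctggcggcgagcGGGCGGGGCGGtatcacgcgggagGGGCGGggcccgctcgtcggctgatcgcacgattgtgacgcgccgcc
SLC2A4RG, chr20:63739526-63739775: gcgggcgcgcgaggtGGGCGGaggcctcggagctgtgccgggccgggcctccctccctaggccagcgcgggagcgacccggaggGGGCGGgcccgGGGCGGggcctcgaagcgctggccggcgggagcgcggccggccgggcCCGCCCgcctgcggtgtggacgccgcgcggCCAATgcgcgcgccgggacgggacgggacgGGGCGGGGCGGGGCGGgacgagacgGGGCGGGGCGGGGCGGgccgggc

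The SLC71A1 window holds 3 GC boxes and 66.4% G and C, and the SLC2A4RG window holds 10 GC boxes, 1 CCAAT box and 86.8% G and C. Promoter windows were found for 18 of the 24 members. A GC box was present in 15 of 18, beside 42.6% of all 35116 windows and 53.7% of the 22199 windows of coding genes. A CCAAT box was present in 4 of 18 (32.7% of coding genes) and an E-box (CACGTG) in 1 of 18, SLC60A2 (7.37% of coding genes). The SLC51A and SLC51B windows held none of these letters. These matches describe the windows and show no binding.

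On the control arrays SLC71A1 read 9.93, 9.95 and 9.95 in SKBR3, 10.40, 10.31 and 10.33 in MDA-MB-231 and 10.69, 10.72 and 10.64 in MDA-MB-468. No arrays of different lines overlapped, and each line stood above the one before. SKBR3 was lower than both other lines, at -0.40 against MDA-MB-231 (SE 0.0531, limma adjusted p = 3.53e-05) and -0.74 against MDA-MB-468 (limma adjusted p = 5.07e-08), and MDA-MB-231 stood at -0.34 against MDA-MB-468 (limma adjusted p = 0.000243). Its paralog SLC71A2 (MFSD14B) was called in none of the pairs, at 0.05, -0.14 and -0.19 in the same order (limma adjusted p = 0.688, 0.230 and 0.119).

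SLC49A4, the lysosomal carrier, was also lowest in SKBR3 but highest in MDA-MB-231. Its arrays read 9.15, 9.08 and 9.15 in SKBR3, 9.55, 9.53 and 9.55 in MDA-MB-231 and 9.32, 9.35 and 9.31 in MDA-MB-468, with no overlap between lines. SKBR3 against MDA-MB-231 was -0.42 (SE 0.0520, limma adjusted p = 1.93e-05), SKBR3 against MDA-MB-468 was -0.20 (limma adjusted p = 0.00600) and MDA-MB-231 against MDA-MB-468 was 0.22 (limma adjusted p = 0.00587).

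SLC2A4RG was lowest in MDA-MB-468. Its arrays read 8.79, 8.62 and 9.01 in SKBR3, 8.91, 8.92 and 8.92 in MDA-MB-231 and 8.20, 8.21 and 8.13 in MDA-MB-468. The MDA-MB-468 arrays lay below all others, by 0.63 (SE 0.106, limma adjusted p = 0.000251) from SKBR3 and 0.74 (limma adjusted p = 0.000106) from MDA-MB-231, and the other two lines overlapped (-0.11, limma adjusted p = 0.456). SLC38A12, of the amino acid transporter family, had the same order of calls, with SKBR3 higher than MDA-MB-468 by 0.37 (SE 0.0941, limma adjusted p = 0.00640), MDA-MB-231 higher by 0.34 (limma adjusted p = 0.0133) and SKBR3 against MDA-MB-231 at 0.02.

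The sugar carriers had their highest control means in SKBR3. SLC60A1 read 5.63, 5.67 and 5.67 in SKBR3, 4.97, 5.01 and 5.09 in MDA-MB-231 and 5.36, 5.43 and 4.97 in MDA-MB-468. SKBR3 lay above both other lines without overlap, and replicate 3 of MDA-MB-468 stood apart from its group at the MDA-MB-231 level. The differences were 0.63 (SE 0.135, limma adjusted p = 0.00213) and 0.40 (limma adjusted p = 0.0288). As deposited, the MDA-MB-231 control mean of SLC60A1, 5.36, lay under the medians of the MDA-MB-231 arrays (5.41 to 5.43). SLC60A2, a sodium-dependent glucose carrier by homology, was higher in SKBR3 than in MDA-MB-231 by 0.54 (SE 0.126, limma adjusted p = 0.00400). Against MDA-MB-468 it stood at 0.31 and was not called (limma adjusted p = 0.0698). Its SKBR3 replicate 1, at 8.51, lay inside the range of the MDA-MB-468 controls (8.31 to 8.66).

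The subunits of the organic solute transporter ran in opposite directions. SLC51A read 5.46, 5.71 and 5.58 in SKBR3, 4.99, 4.88 and 5.13 in MDA-MB-231 and 4.41, 5.12 and 5.31 in MDA-MB-468. SLC51B read 4.53, 5.06 and 4.78 in SKBR3, 5.43, 5.37 and 5.44 in MDA-MB-231 and 5.28, 5.10 and 5.40 in MDA-MB-468. SKBR3 was thus the highest line for the alpha subunit and the lowest for the beta subunit, without overlap in either case. The low ends of both contrasts lay under the array medians of their line. Deposited control means were 5.34 in MDA-MB-231 and 5.10 in MDA-MB-468 for SLC51A, and 4.28 in SKBR3 for SLC51B. Of the control groups, SLC51A lay above the array medians in SKBR3 alone (5.12), so among controls it passed the filter on low values only where it read highest. Its calls, which are counted among those above, are therefore description and no support for a contrast between the subunits. SLC51A was higher in SKBR3 by 0.58 (SE 0.197, limma adjusted p = 0.0330) than in MDA-MB-231 and by 0.64 (limma adjusted p = 0.0187) than in MDA-MB-468. SLC51B was lower in SKBR3, at -0.62 (SE 0.151, limma adjusted p = 0.00527) and -0.46 (limma adjusted p = 0.0246).

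The other calls between lines were smaller. SLC66A2 was lower in MDA-MB-231 than in MDA-MB-468, at -0.35 (SE 0.0933, limma adjusted p = 0.0108), and SLC61A1, the molybdate carrier, was higher, at 0.30 (SE 0.0880, limma adjusted p = 0.0195). SLC66A3 was lower in SKBR3 than in MDA-MB-468, at -0.29 (SE 0.0967, limma adjusted p = 0.0293), and SLC35F6 was higher, at 0.22 (SE 0.0835), with a limma adjusted p of 0.05 just inside the threshold. SLC35D4, the gene that fell after the anti-AL078604.2 ASO, was not called between any lines: its control means were 7.13 in SKBR3, 7.40 in MDA-MB-231 and 7.22 in MDA-MB-468. The mitochondrial ornithine carriers SLC25A15 and SLC25A2 had the narrowest spans, 0.06 and 0.05.

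**Figure D4:**
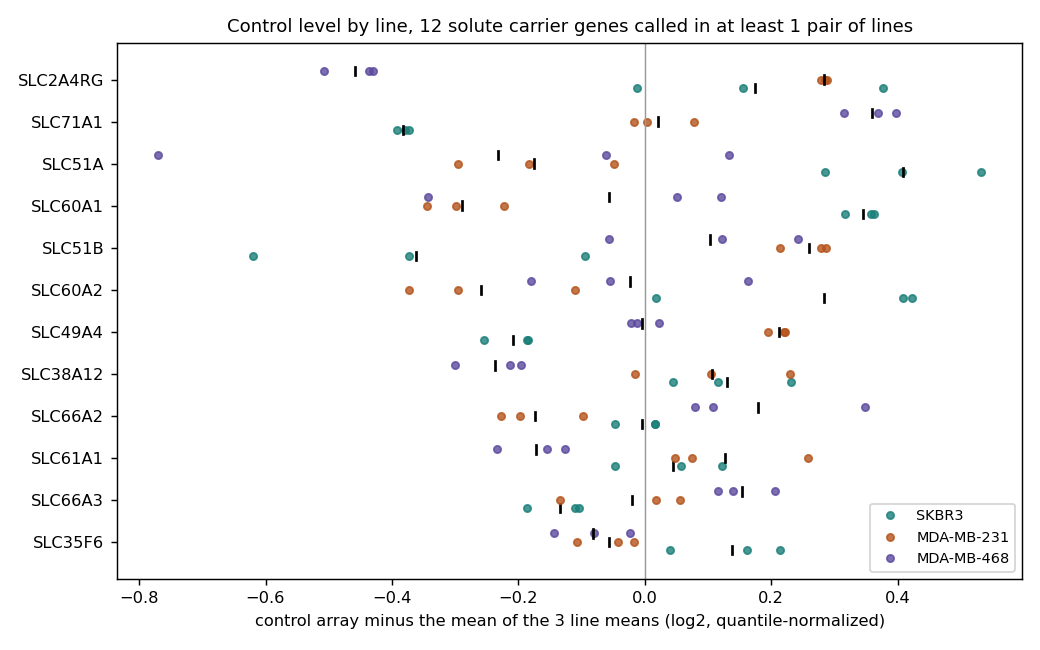
Control arrays of each line for the 12 solute carrier genes called in at least 1 pair of lines, as the quantile-normalized log2 value minus the mean of the gene's line means, with coloured points for arrays and black ticks for line means (n = 3). SLC71A1 and SLC49A4 separate all 3 lines, and SLC2A4RG sets MDA-MB-468 apart. SLC51A and SLC51B place SKBR3 at opposite ends, but the low end of each lay under the array medians of its line.

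Some of these calls were lost when a single array was left out, for some genes whichever of several arrays it was. The calls for SLC71A1, SLC49A4 and SLC2A4RG, for SLC38A12 between SKBR3 and MDA-MB-468, and for SLC60A1, SLC60A2 and SLC51B between SKBR3 and MDA-MB-231 held in every alternative in which the gene was tested. SLC51A against MDA-MB-231 lost its call without control replicates 2 or 3 of SKBR3 or 1 or 2 of MDA-MB-231 (limma adjusted p from 0.0714 to 0.105). Against MDA-MB-468 SLC51A lost it without SKBR3 replicate 2 (limma adjusted p = 0.0621) or MDA-MB-468 replicate 1, where the difference was 0.37 (limma adjusted p = 0.110).

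In the same pair SLC51B lost its call without SKBR3 replicates 1 or 3 or MDA-MB-468 replicates 1 or 3 (limma adjusted p from 0.0587 to 0.122). SLC60A1 lost it without any 1 of the SKBR3 arrays or without MDA-MB-468 replicate 3, where the difference was 0.26 (limma adjusted p from 0.0557 to 0.160). SLC66A3 lost it without any 1 of the 6 arrays (limma adjusted p from 0.0505 to 0.0937), and SLC35F6 without any but SKBR3 replicate 1 (limma adjusted p from 0.0609 to 0.162). The count of 9 calls was then 5 without SKBR3 replicate 2, SKBR3 replicate 3 or MDA-MB-468 replicate 1, and 6 without MDA-MB-468 replicate 3. Between MDA-MB-231 and MDA-MB-468 the count of 6 was 3 without MDA-MB-468 replicate 3, which ended the calls for SLC66A2 (limma adjusted p = 0.0657), SLC38A12 (limma adjusted p = 0.0554) and SLC61A1 (limma adjusted p = 0.0750). Leaving out MDA-MB-231 replicate 2 also ended that for SLC61A1 (limma adjusted p = 0.102), and leaving out replicate 3 that for SLC38A12 (limma adjusted p = 0.0665). Other settings also ended calls between SKBR3 and MDA-MB-468. With only the compared groups fitted, SLC51A, SLC51B and SLC60A1 lost theirs (limma adjusted p = 0.0574, 0.0603 and 0.0578). Median centring ended that of SLC66A3 (limma adjusted p = 0.0844), and median centring, no filter and no intensity trend each ended that of SLC35F6 (limma adjusted p from 0.0572 to 0.0740).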

How the data were processed

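Values were those the authors deposited, 1 per feature (transcript cluster) and array. Per the submitters' processing notes, the authors made them with Transcriptome Analysis Console. For its version, normalization and genome build, the sources used here give nothing. These deposited values, 0.41 to 13.84, were taken to be log2 from their range, since no label names the scale. Symbols came from the platform annotation, and RefSeq names and promoters from GRCh38.p14.

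The 29855 features tested had, in 1 or more of the 6 groups, a mean above the median feature of that group. limma 3.58.1 in R 4.3.3 fitted a group-means model to all 18 arrays (12 residual degrees of freedom) with an intensity trend. Two-sided p-values received a Benjamini-Hochberg adjustment across the features tested, with a threshold of 0.05. ASO comparisons used deposited values, and comparisons of lines used values quantile-normalized over all arrays. Intervals are 95%. An array gives no molecule count, so the number of arrays limits precision. The procedure was tested on simulated data.

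Members and lists were chosen with earlier results of these data known. Named genes were, for each ASO comparison and the mean of both, all called members and the 5 with the smallest p in each direction, for each pair of lines up to 6 called members in each direction, and the leading members of the orphan class. Genes beside SLC35D4 and others were chosen after their values were seen. Alternatives changed the normalization, filter, trend, groups fitted, features per gene and replicate block, and left out each array in turn.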

Additional observations from a re-analysis of the deposited data

How the results depend on the processing

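Genes called in the main run, and those at an unadjusted p under 0.05 in limma in an ASO comparison or the mean of both, were followed over the alternatives. None of them reversed its direction, which was unlikely for genes picked by a small p. Some medians over the members, all near 0, changed sign when an array was left out, as given below. Of calls and values for the genes followed, 367 kept their side of the threshold, 38 lost it and 2 gained it, and of the counts and medians 217 stayed and 15 moved. With quantile normalization the members' median in SKBR3 after the ASO was -0.0285. With features required to exceed the upper quartile, 16 members were tested, and 3 were called between SKBR3 and MDA-MB-231. The members' median between SKBR3 and MDA-MB-468 was 0.0800 with median centring and 0.0663 with the stricter filter. Leaving out each array in turn gave 0 to 1 member called in MDA-MB-231 after the ASO and 1 to 2 in the mean of both lines. It gave 5 to 7 between SKBR3 and MDA-MB-468 and 3 to 6 between MDA-MB-231 and MDA-MB-468. The members' median then ran from -0.00670 to 0.0204 in SKBR3 after the ASO, from -0.0882 to 0.00327 in MDA-MB-468 after the ASO, from -0.0277 to 0.0191 in the mean of both, from -0.0257 to 0.0230 between SKBR3 and MDA-MB-231, from -0.0122 to 0.0723 between SKBR3 and MDA-MB-468 and from 0.0254 to 0.102 between MDA-MB-231 and MDA-MB-468. Taking the mean of a gene's features changed nothing, since each gene has 1.

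Replicate numbers did not pair the arrays: deviations of same-numbered arrays correlated at -0.02 to 0.10 in SKBR3, -0.06 to -0.02 in MDA-MB-231 and -0.12 to 0.05 in MDA-MB-468, and 1, 0 and 1 of 3 ASO arrays correlated best with their own number. With a fixed replicate block within each line, 0, 0 and 0 members were called in these lines and 1 in the mean of both. Between the lines the block was random and joined same-numbered arrays of different lines, and 6, 8 and 6 members were called. The correlations above, taken within lines, do not bear on that joining. The random block ended the call of SLC35F6 between SKBR3 and MDA-MB-468 (limma adjusted p = 0.0605), and neither block ended another member's call. Over all features the fixed block gave 0 calls in MDA-MB-231, 0 in MDA-MB-468 and 113 in the mean of both, beside 51, 2 and 478 without it.

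The count over all features in the mean of both was 263 with no filter, 730 with the stricter one, 259 with only the groups compared, and from 91 to 1431 with each array left out, the highest without replicate 1 of the MDA-MB-231 ASO group. In MDA-MB-231 it was 28 with no filter, 99 with the stricter one, 26 without the trend, 3 with only the groups compared, and from 0 to 532 with each array left out, the highest without that same replicate. In MDA-MB-468 it ranged from 0 to 12, the highest without ASO replicate 3, and in SKBR3 from 0 to 231, the highest without ASO replicate 2. The cause was not tested.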

Other observations

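A further 54 genes have a solute carrier name only among their RefSeq synonyms, a set chosen after the data were seen, and 45 of them were tested. In limma 0 were called in SKBR3, MDA-MB-231 or MDA-MB-468 after the ASO, with 3, 6 and 6 at an unadjusted p under 0.05, beside 9.16%, 9.35% and 10.5% of all features. In the average over both triple-negative lines 10 of 45 passed that level (22.2%), beside 14.6% of all features. After adjustment 1 of 45 was called there, beside 1.6% of all features. It fell, and was LETM1 (-0.38, SE 0.0748, limma adjusted p = 0.0192), a cation and proton exchanger of the inner mitochondrial membrane. Between the control groups 14, 15 and 15 of 45 were called (SKBR3 against MDA-MB-231, SKBR3 against MDA-MB-468 and MDA-MB-231 against MDA-MB-468), beside 31.5%, 35.5% and 26.1% of all features.

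The next smallest p-values of this set in the mean of both lines belonged to MPDU1 (-0.25, SE 0.0699, limma adjusted p = 0.0882), which is needed for the use of dolichol-linked mannose in glycosylation, and SFXN5 (-0.31, SE 0.0885, limma adjusted p = 0.0925), a sideroflexin of the mitochondrial membrane.

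A total of 13 transcripts with hyphenated solute carrier symbols, mostly antisense and divergent RNAs, were kept out of the members. Of these 5 were tested, and 0 were called in any ASO comparison or the mean of both in limma, beside 0% to 1.6% of all features. At an unadjusted p under 0.05 the count was also 0, beside 9.16% to 14.6% of all features. With 5 transcripts this is near those shares and says nothing particular to them.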
